A study of Homo sapiens with 5 samples.

Results

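The 240 protein-coding genes of human chromosome 19 whose RefSeq symbol is ZNF followed by digits were examined for FOXO3A peaks in leukemia cells, in a study designed to find direct targets of FOXO3A. They were 240 of 19866 protein-coding genes, and were chosen by chromosome and symbol alone, with no measured value. U-937 had 2 CUT&Tag libraries and THP-1 had 3. Each is an established human line of monocytic character, grown in the same medium and labelled as acute myeloid leukemia cells. In CUT&Tag an antibody, here the same anti-FOXO3A antibody in every library, tethers a transposase, which cuts and tags the DNA close by for sequencing. The labels give no control antibody, no treatment and no altered FOXO3A for any library.

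C2H2 zinc finger proteins form the largest family of human transcription factors, and chromosome 19 carries many of their genes in tandem clusters that grew by local duplication. A large share of them join a row of DNA-reading fingers to a KRAB domain, which binds TRIM28 (KAP1), and TRIM28 brings the H3K9 methyltransferase SETDB1 and other silencing proteins to the bound DNA. Many of these proteins silence transposable elements. FOXO3A is a forkhead transcription factor that AKT signalling keeps in the cytoplasm.

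Replicate 1 was the only library of its line with peaks. U-937 replicate 1 held 2272 peaks, 212 of them on chromosome 19, and U-937 replicate 2 held 0. THP-1 replicate 1 held 1282 peaks, 48 of them on chromosome 19, and THP-1 replicates 2 and 3 held 0 each. Depth is unknown, as the sources used here give no number of reads, and with 1 list a line nothing below was checked in a second library. The lists differ in format: the score equalled 10 times the -log10 p, cut to a whole number, at all 2272 U-937 peaks and 10 times the -log10 q, cut likewise, at 1281 of 1282 THP-1 peaks, and 0 U-937 peaks but 245 THP-1 peaks lay off the assembled chromosomes. Fold enrichment, the authors' linear ratio over an unstated background, was used within its own list. A peak was placed at a gene boundary when its summit lay within 1000 bp of either end of the gene span, and inside the gene when the summit lay in the span beyond that. No test was made between gene groups, and the 95% intervals are exact (Clopper-Pearson). The share that a count of 0 allows is given apart from them, as 3 counts of the total. Intervals and these limits cover counting error only.

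In U-937, FOXO3A peaks lay at the boundary of 16 of the 240 ZNF genes (6.67%, 95% interval 3.86 to 10.6). Over all protein-coding genes the share was 7.02%, so the members sat near that background. The other protein-coding genes of chromosome 19 carried a boundary peak at 169 of 1170 genes (14.4%, 12.5 to 16.6). The ZNF genes of other chromosomes had 15 of 237 (6.33%, 3.59 to 10.2), close to the value on chromosome 19. The interval of the chromosome 19 ZNF genes did not meet that of their chromosome neighbours. With each peak counted at its nearest gene alone, the intervals did meet, at 16 of 240 ZNF genes (3.86 to 10.6) and 130 of 1170 other genes (11.1%, 9.37 to 13.1).

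In THP-1, 0 of the 240 ZNF genes had a boundary peak, which allows a share of up to 1.25%. The share over all protein-coding genes was 0.221%, and 12 of the 1170 other genes of chromosome 19 had one (1.03%, 0.531 to 1.78). Peaks inside the gene were also absent from the ZNF genes in THP-1, against 0.871% of all protein-coding genes. Within 1000 bp of an annotated start the THP-1 count was 0 of 210 members, against 0.234% of all protein-coding genes. The nearest THP-1 summits lay 18549 bp from ZNF653 and 19042 bp from ZNF875. The median distance from a ZNF gene was 1591.2 kb, against 541.4 kb for other chromosome 19 genes. As THP-1 had no peak at a ZNF gene, no ZNF gene had a peak in both lines. The share of all protein-coding genes with any THP-1 peak was 1.09%, below the 1.25% that the count of 0 allows. The absence is therefore not set apart from the background of all protein-coding genes. Among other chromosome 19 genes 27 of 1170 had any THP-1 peak (2.31%, 1.53 to 3.34), a share above that 1.25%. Its interval reaches down to the exact upper limit of the ZNF genes, 1.53%.

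**Figure D1:**
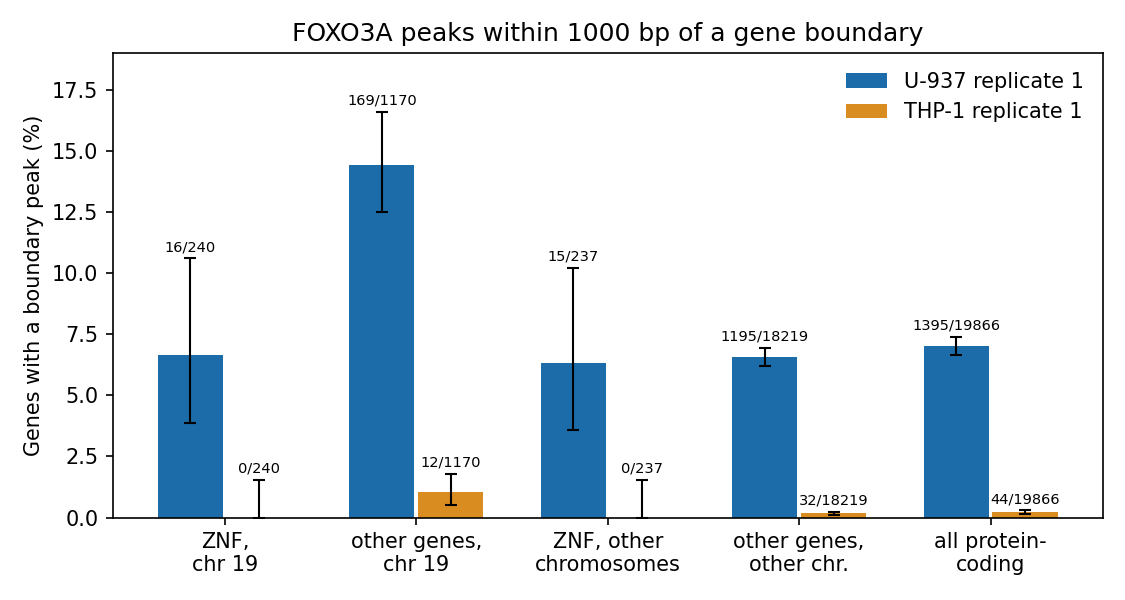
Bars give the percentage of genes with a FOXO3A peak summit within 1000 bp of a gene boundary, for U-937 replicate 1 and THP-1 replicate 1, with exact 95% intervals and the counts above them. In U-937 the chromosome 19 ZNF genes (6.67%) stand near all protein-coding genes (7.02%) and below the other genes of chromosome 19 (14.4%), and in THP-1 they stand at 0.

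Promoter sequences of 5 members with a U-937 peak are shown because they carry the strongest boundary peak, the peak that faces a pair of ZNF genes, and the motif matches described further on. They are RefSeq sequences of build GRCh38.p14, 250 bases before to 50 after an annotated start, read 5′ to 3′ on the gene's strand. Capitals mark the bases inside the authors' U-937 peak. ZNF564 lies at chr19:12551433-12551732 (minus strand), ZNF565 at chr19:36214616-36214915 (minus), ZNF444 at chr19:56141037-56141336 (plus), ZNF260 at chr19:36528222-36528521 (minus) and ZNF699 at chr19:9309789-9310088 (minus).
ZNF564: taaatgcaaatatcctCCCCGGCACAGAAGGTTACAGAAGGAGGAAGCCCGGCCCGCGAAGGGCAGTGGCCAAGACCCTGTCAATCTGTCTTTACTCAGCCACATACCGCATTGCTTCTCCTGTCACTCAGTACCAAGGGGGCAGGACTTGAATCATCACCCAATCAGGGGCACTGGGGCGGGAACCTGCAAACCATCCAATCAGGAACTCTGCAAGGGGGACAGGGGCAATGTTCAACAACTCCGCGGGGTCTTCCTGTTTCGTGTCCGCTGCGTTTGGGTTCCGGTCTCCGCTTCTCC
ZNF565: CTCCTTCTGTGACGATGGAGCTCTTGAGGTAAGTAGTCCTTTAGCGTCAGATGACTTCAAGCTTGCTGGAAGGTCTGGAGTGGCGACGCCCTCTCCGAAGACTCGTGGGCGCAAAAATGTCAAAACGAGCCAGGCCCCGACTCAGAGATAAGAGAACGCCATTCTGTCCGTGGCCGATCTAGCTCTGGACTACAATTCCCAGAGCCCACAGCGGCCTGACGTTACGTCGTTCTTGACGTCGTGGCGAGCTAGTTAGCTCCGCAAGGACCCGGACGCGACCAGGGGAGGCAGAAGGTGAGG
ZNF444: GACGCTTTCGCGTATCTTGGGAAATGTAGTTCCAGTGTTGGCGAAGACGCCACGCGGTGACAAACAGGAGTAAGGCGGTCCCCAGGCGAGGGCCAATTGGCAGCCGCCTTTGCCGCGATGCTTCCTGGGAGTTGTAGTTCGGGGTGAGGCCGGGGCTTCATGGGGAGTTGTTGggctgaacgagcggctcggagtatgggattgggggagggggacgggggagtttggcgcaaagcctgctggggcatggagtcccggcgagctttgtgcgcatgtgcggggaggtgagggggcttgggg
ZNF260: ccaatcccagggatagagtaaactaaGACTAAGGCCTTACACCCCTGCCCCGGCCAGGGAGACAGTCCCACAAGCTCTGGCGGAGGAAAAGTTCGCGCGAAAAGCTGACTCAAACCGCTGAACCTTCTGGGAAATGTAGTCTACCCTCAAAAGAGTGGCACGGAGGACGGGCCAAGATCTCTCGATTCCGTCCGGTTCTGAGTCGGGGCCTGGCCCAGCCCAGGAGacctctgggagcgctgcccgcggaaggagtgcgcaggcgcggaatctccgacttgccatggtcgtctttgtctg
ZNF699: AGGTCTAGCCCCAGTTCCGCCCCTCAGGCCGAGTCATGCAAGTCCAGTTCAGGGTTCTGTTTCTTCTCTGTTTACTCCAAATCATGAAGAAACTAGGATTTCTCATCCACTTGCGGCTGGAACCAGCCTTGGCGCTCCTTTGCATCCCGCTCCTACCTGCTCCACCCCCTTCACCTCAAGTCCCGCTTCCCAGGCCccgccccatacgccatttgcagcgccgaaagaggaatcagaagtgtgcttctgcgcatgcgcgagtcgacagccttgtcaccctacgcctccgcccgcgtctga

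The members are given by fold enrichment within the U-937 list. ZNF564, a KRAB zinc finger gene, led with a fold enrichment of 10.8 and a -log10 q of 13.1, and ranked 77 among the 2272 peaks. Its summit lay 116 bp upstream of the annotated start, and the peak covered 284 of the 300 bases printed above. ZNF576 followed at a fold of 10.7 with a -log10 q of 14.0, its summit 28 bp downstream of the start. The ZNF576 peak also lay at the boundary of IRGQ, the neighbouring gene.

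ZNF146, whose protein consists of zinc fingers with no KRAB domain, had a fold of 9.83. Its peak, at chr19:36214614-36214978, lay inside the span of ZNF565 as well, 342 bp upstream of the tabulated ZNF146 start and 99 bp upstream of a ZNF565 start on the opposite strand. The same peak thus stood between these starts of the genes and is counted for both. Its summit also lay 41 bp inside the ZNF146 span and 320 bp downstream of another ZNF565 start. ZNF524 had a fold of 7.95 at chr19:55599726-55599940, a peak shared with FIZ1, which encodes a zinc finger protein that binds the receptor FLT3.

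The remaining boundary peaks were weaker. ZNF260 had a fold of 7.32, and ZNF274 one of 6.98. ZNF274 is known for bringing SETDB1 to the 3′ ends of other zinc finger genes, and its own summit lay 63 bp downstream of its start. ZNF888 (fold 6.93), ZNF787 (6.34), ZNF850 (6.06) and ZNF497 (5.77) completed the first 10 by fold enrichment. ZNF584 (5.60), ZNF699 (5.51), ZNF226 (5.38), ZNF211 (5.38), ZNF254 (5.11) and ZNF577 (4.45) followed. ZNF699 is the gene mutated in DEGCAGS syndrome, a developmental disorder with anaemia.

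The 16 boundary peaks had a median fold of 6.20, against 7.65 for the 134 boundary peaks of other chromosome 19 genes and 6.59 for the 1110 boundary peaks of all protein-coding genes. Their median width was 211 bp, against 311 bp and 252 bp. At a -log10 q of at least 5, 8 of the 240 ZNF genes kept a boundary peak (3.33%, 1.45 to 6.46), beside 3.93% of all protein-coding genes and 121 of 1170 other chromosome 19 genes (10.3%, 8.66 to 12.2). The 8 are ZNF564, ZNF576, ZNF146, ZNF524, ZNF260, ZNF274, ZNF888 and ZNF850. No ZNF gene had more than 1 boundary peak.

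**Figure D2:**
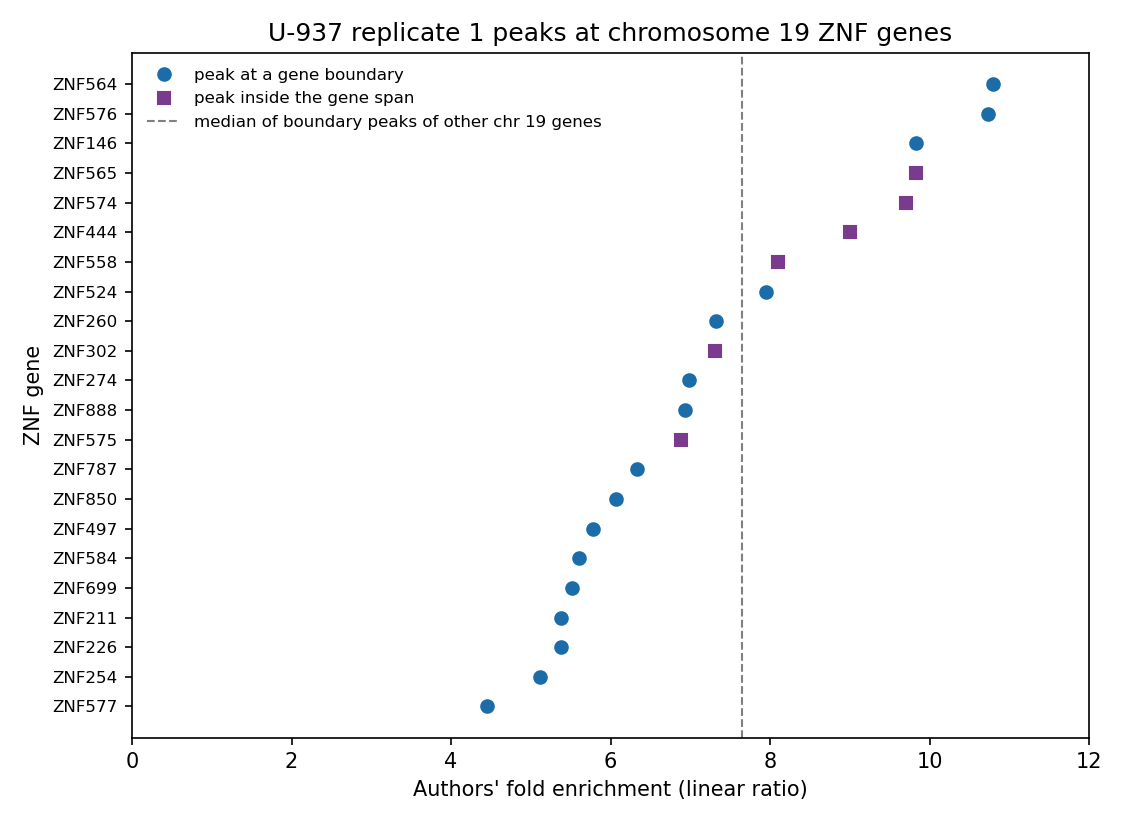
Each point is a ZNF gene with a U-937 peak, placed by the authors' fold enrichment (linear ratio); circles are boundary peaks, squares are peaks inside the span, and the dashed line is the median of boundary peaks of other chromosome 19 genes (7.65). Boundary peaks run from 4.45 at ZNF577 to 10.8 at ZNF564, and the inside peaks from 6.88 at ZNF575 to 9.83 at ZNF565.

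Peaks inside ZNF genes lay beside annotated starts within the span. In U-937, 6 of 240 ZNF genes had a peak inside the span (2.5%, 0.923 to 5.36), against 3.14% of all protein-coding genes and 45 of 1170 other chromosome 19 genes (3.85%, 2.82 to 5.11). For all 6 the summit was within 1000 bp of an annotated start of the same gene. Among other chromosome 19 genes that held for 11 of 41 gene and peak pairs with a tabulated start (26.8%), and among all protein-coding genes for 118 of 532 (22.2%).

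ZNF565 had the strongest of these peaks, the one shared with ZNF146. ZNF574 had a fold of 9.70, with the summit 210 bp upstream of an internal start. ZNF444, which encodes a zinc finger protein with a SCAN domain, had a fold of 9.01 at 165 bp upstream. ZNF558, a KRAB gene, had a fold of 8.10 at 429 bp upstream, and ZNF302 one of 7.31 at 107 bp upstream. ZNF575 was the exception in position, with a fold of 6.88 and a summit 867 bp downstream of its start. The 6 inside peaks had a median fold of 8.55, above the 6.20 of the boundary peaks of the family, a difference that was not tested.

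Counting by annotated start in place of gene ends, 16 of the 210 ZNF genes in the start table had a U-937 peak within 1000 bp (7.62%, 4.42 to 12.1), beside 7.75% of all protein-coding genes and 152 of 975 other chromosome 19 genes (15.6%, 13.4 to 18.0). These 16 are not the 16 of the boundary count. They are the 6 genes with an inside peak and 10 of the boundary genes. The start table has no entry for ZNF211, ZNF524 and ZNF888. The ZNF254 and ZNF584 summits lay at the 5′ end of the gene span but 53543 and 7235 bp upstream of the tabulated start. Among boundary genes in the start table, ZNF577 alone had its summit at the 3′ end, 303 bp past the span and 83812 bp from its start.

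With either a boundary or a start counted, 22 ZNF genes had a U-937 peak (9.17%, 5.83 to 13.5), against 7.58% of all protein-coding genes and 179 of 1170 other chromosome 19 genes (15.3%, 13.3 to 17.5), and these intervals met too. These are all the members with any U-937 peak, and they rest on 21 distinct peaks because ZNF146 and ZNF565 share one. Any U-937 peak, at a boundary or inside, was at 9.98% of all protein-coding genes, above the 9.17% of the ZNF genes. Among other chromosome 19 genes it was at 211 of 1170 (18.0%, 15.9 to 20.4). By that count the intervals of ZNF and other chromosome 19 genes did not meet. At the edge of the window, ZNF577 (303 bp) and ZNF787 (332 bp) were the farthest inside, and ZNF302 (1592 bp) and ZNF575 (2032 bp) the nearest outside.

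Around annotated starts, 11 of the 15 distinct ZNF peaks had their summit upstream, with a median position of 131 bp upstream. For the 128 peaks of other chromosome 19 genes the median was 218.5 bp upstream and 15.6% lay downstream. For the 1022 peaks of all protein-coding genes the median was 145 bp upstream and 23.6% lay downstream. The ZNF peaks, with 26.7% downstream, sat near that background. Of the 21 distinct member peaks, 5 had the boundary of another protein-coding gene, 6 that of a lncRNA gene, and 10 neither. Besides IRGQ and FIZ1, the protein-coding partners were MBD3L1 at ZNF558, SCGB2B2 at ZNF302 and ZNF146, itself a member, at ZNF565. Shared peaks were not particular to the family. The 1110 boundary peaks of all protein-coding genes made 1413 gene and peak pairs, and the 134 of other chromosome 19 genes made 173.

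**Figure D3:**
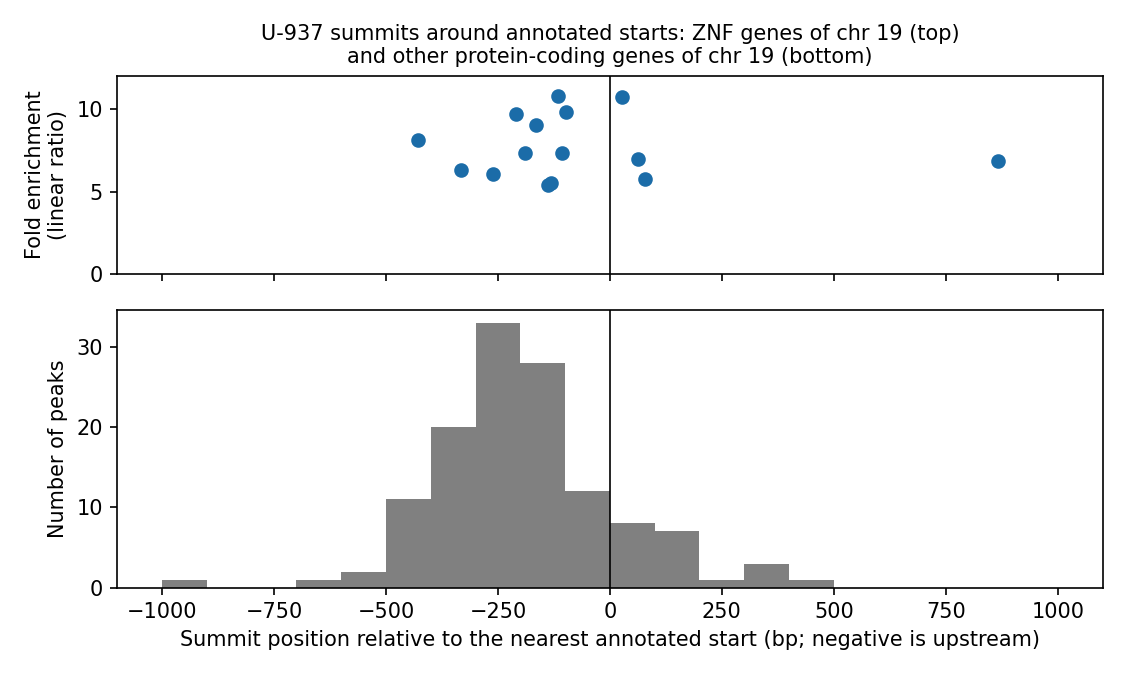
The horizontal axis is the summit position in bp relative to the nearest annotated start (negative is upstream); the upper panel shows 15 ZNF peaks by fold enrichment and the lower panel counts the 128 peaks at other chromosome 19 genes. ZNF summits lie mostly upstream, at a median of 131 bp (145 bp for all protein-coding genes, not drawn), and ZNF575 stands alone at 867 bp downstream.

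The ZNF genes fell into 9 clusters when neighbours at most 1 Mb apart were joined and at least 5 genes were required, with 231 genes inside and 9 outside. All 16 boundary peaks were in clusters (6.93% of 231, 4.01 to 11.0). Outside clusters 0 of 9 genes had one, which allows up to 33.3%, and ZNF574 had the single inside peak there. The clusters spanned 16907 kb and held 38 of the 212 chromosome 19 peaks of U-937, of which 20 were at ZNF genes.

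Cluster 9, at the end of the long arm from ZNF628 to ZNF446 (chr19:55476617-58489533), had 6 of 57 genes with a boundary peak (10.5%, 3.96 to 21.5), led by ZNF524. Cluster 6, from ZNF565 to ZNF573 (chr19:36182060-37779586), had 3 of 24 (12.5%, 2.66 to 32.4), led by ZNF146. Cluster 7, from ZNF575 to ZNF296, had 2 of 24 (8.33%), led by ZNF576. Cluster 8, from ZNF175 to ZNF331, had 2 of 39 (5.13%), led by ZNF888.

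The other clusters had at most 1 boundary gene each. Cluster 3, from ZNF653 to ZNF791, had 1 of 25 genes (4.0%, 0.101 to 20.4), ZNF564. Cluster 4, from ZNF101 to ZNF254 (chr19:19668153-24129968), is the widest at 4462 kb and had 1 of 37 (2.7%, 0.0684 to 14.2), ZNF254. Cluster 2, from ZNF557 to ZNF846, had 1 of 15 (6.67%), ZNF699, with ZNF558 as its inside peak. Clusters 1 and 5, with 5 genes each, had 0 boundary peaks, and cluster 5 had the inside peak of ZNF302. All these intervals overlap, so the order of the clusters is not resolved at these counts.

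Cluster 4 also stood farthest from any U-937 peak. The median distance from a gene boundary to the nearest summit was 1112.4 kb there, and between 80.5 and 331.6 kb in the other clusters. All 20 ZNF genes over 1 Mb from a U-937 peak were in cluster 4, against 1 of the 1170 other genes of the chromosome. The span of cluster 4 held only 2 of those other genes, so this region can hardly be compared between the groups. ZNF43 was the farthest, at 2141.0 kb. Over all ZNF genes the median was 161.6 kb, against 40.3 kb for other chromosome 19 genes. These distances were taken on chromosome 19 alone, so no share over all protein-coding genes stands beside them. Whether such distances are unusual among human genes was not examined. How reads that match several near-identical copies were treated is not given in the sources used here, and its part in these counts was not tested.

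Other protein-coding genes inside the cluster spans had a boundary peak at 18 of 158 (11.4%, 6.89 to 17.4), and those outside the spans at 151 of 1012 (14.9%, 12.8 to 17.3). With a joining distance of 500 kb, which gives 10 tighter clusters, the other genes inside had 7 of 95 (7.37%, 3.01 to 14.6) and the ZNF genes 16 of 228 (7.02%, 4.06 to 11.1). With a joining distance of 2 Mb the other genes inside had 74 of 534 (13.9%, 11.0 to 17.1). The ZNF genes inside then had 16 of 236 (6.78%, 3.92 to 10.8). At that distance alone the intervals of ZNF and other genes inside did not meet, so the comparison depends on how clusters are drawn.

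**Figure D4:**
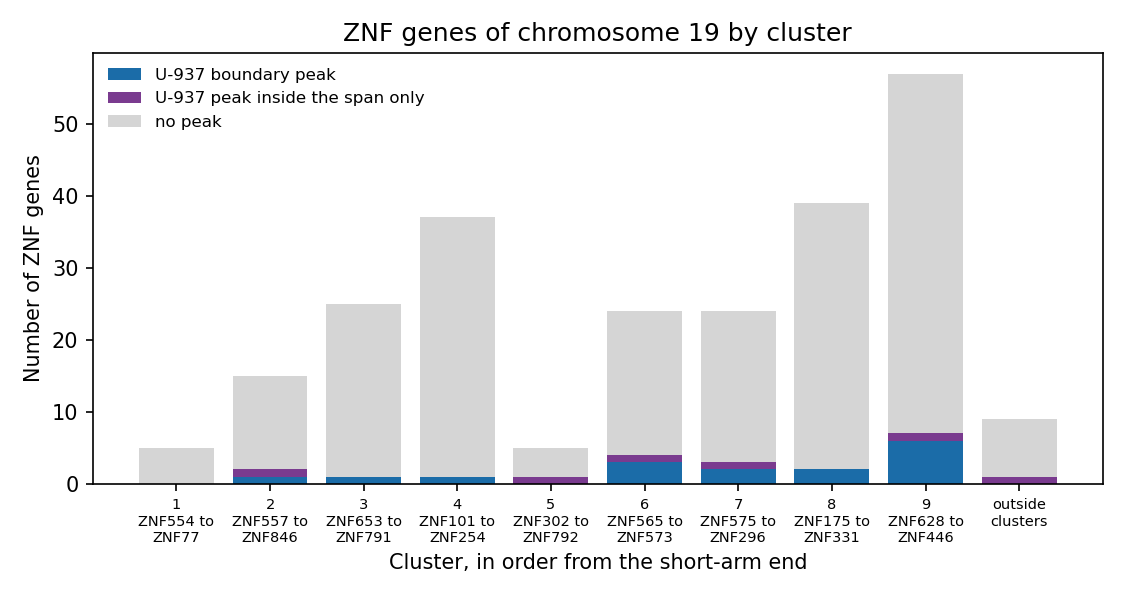
Bars give the number of ZNF genes in each cluster along chromosome 19, split by U-937 boundary peak, U-937 peak inside the span only, and no peak. Cluster 9 holds the most boundary peaks (6 of 57 genes) and the wide cluster 4 holds 1 among 37 genes.

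CpG dinucleotides, which mark many active promoters, were counted in the promoter windows. ZNF starts with a U-937 peak held a median of 23 CpG dinucleotides per 300 bases (18 starts), against 20.0 for the 243 ZNF starts without. For other chromosome 19 genes the medians were 27 and 19. In cluster 4 the median was 10.0, the lowest of the clusters, which ran up to 26 in cluster 5.

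The ZNF starts were also set beside other starts of the chromosome at like CpG numbers. With 20 to 29 CpG dinucleotides, 8 of 106 ZNF starts had a peak (7.55%, 3.31 to 14.3) against 82 of 320 others (25.6%, 20.9 to 30.8), the one bin whose intervals did not meet. With 10 to 19 it was 5 of 95 (5.26%, 1.73 to 11.9) against 38 of 272 (14.0%, 10.1 to 18.7). With 30 or more it was 5 of 38 (13.2%, 4.41 to 28.1) against 62 of 355 (17.5%, 13.7 to 21.8). Below 10 the counts were 0 of 22 and 5 of 340. Over all protein-coding starts the shares were 0.812% below 10, 8.5% at 10 to 19, 12.4% at 20 to 29 and 8.09% at 30 or more, each inside the ZNF interval of its bin. The ZNF value was below that background at 10 to 19 and 20 to 29 and above it at 30 or more. Starts of a gene can share a peak and are not independent.

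**Figure D5:**
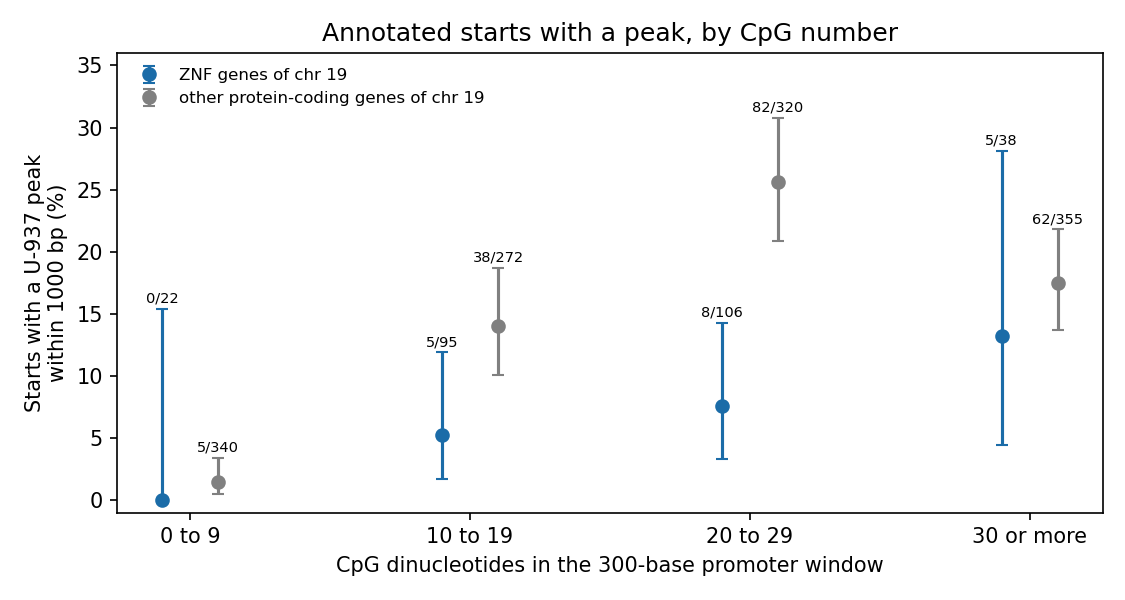
Points give the percentage of annotated starts with a U-937 peak within 1000 bp, by the number of CpG dinucleotides in the 300-base promoter window, for ZNF genes and for other protein-coding genes of chromosome 19, with exact 95% intervals and counts. In the bins of 10 to 19 and 20 to 29 the ZNF points (5.26% and 7.55%) lie below those of other genes (14.0% and 25.6%); all protein-coding starts, not drawn, had 8.5% and 12.4%, inside the ZNF intervals.

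Motif letters were searched on both strands of the 300-base windows. The forkhead letters TGTTTAC were in 1 of the 18 ZNF starts with a U-937 peak, that of ZNF699. There they occupy bases 69 to 75 of the window printed above, inside the peak and 48 bp from its summit. Among ZNF starts without a peak 2 of 243 held them, at ZNF534 and ZNF331, and 2.85% of all protein-coding starts did. Split by U-937 peak, they were in 1.61% of all protein-coding starts with a peak and 2.94% without. For other chromosome 19 genes it was 0 of 187 starts with a peak and 15 of 1100 without. The match at ZNF699 is thus a single case. The letters CAAAACA, a core of the insulin response element, were in 0 of the 18 starts with a peak, in 2 of 243 without, and in 4.01% of all starts. Over all protein-coding starts they were in 2.83% with a peak and 4.1% without. For other chromosome 19 genes the order was the other way, at 6.95% with a peak and 2.27% without.

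The ETS letters CCGGAAG were common in the family whether or not a peak was present, in 5 of 18 ZNF starts with a peak (27.8%) and 99 of 243 without (40.7%), against 12.8% of all starts. The CCAAT letters were in 5 of 18 (27.8%) and 123 of 243 (50.6%), against 34.7% of all starts. TGACGTCA, the cyclic AMP response element, was in 0 of 18 and 10 of 243, against 2.26% of all starts.

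A further word, ACTACA followed after any 2 bases by TCCC, was searched after it was seen in the printed promoters. It is the core of the sequence bound by ZNF143, a zinc finger activator that binds promoters. It was in 38 of the 261 ZNF starts (14.6%), against 31 of 1287 starts of other chromosome 19 genes (2.41%) and 2.35% of all starts. Among ZNF starts it was in 5 of 18 with a U-937 peak (27.8%) and 33 of 243 without (13.6%). The 5 include ZNF565, ZNF444 and ZNF260, printed promoters of the kind that gave the word, and ZNF565 and ZNF146 share a peak. The printed promoters count in the 14.6% too, and a gene can have several starts. Neither the 14.6% nor the 27.8% is therefore an independent value, and neither was tested. Among other chromosome 19 starts it was in 11 of 187 with a peak (5.88%) and 20 of 1100 without (1.82%), and among all protein-coding starts in 4.75% with a peak and 2.17% without.

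The 5 members with both the word and a peak at the start are ZNF565, ZNF146, ZNF260, ZNF850 and ZNF444. The word lies whole inside the peak at 3 of them. At ZNF146 the peak's edge crosses it, with 6 of its 12 bases inside and its middle 214 bp from the summit, and at ZNF850 it lies outside, 179 bp from the summit. In the ZNF565 window it is at bases 189 to 200, 42 bp from the summit. In the ZNF260 window it is at bases 129 to 140, 72 bp from the summit, in reverse. ZNF444 has it at bases 19 to 30 and again at 127 to 138, at 62 and 46 bp from the summit.

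The word was spread unevenly over the clusters. In cluster 6, 14 of 23 genes in the start table held it (60.9%), and 4 of these 14 had a peak at the start. In cluster 7 it was 10 of 20 (50.0%), of which 0 had a peak at the start. In clusters 3 and 4 it was 0 of 24 and 0 of 29, and in cluster 8 it was 1 of 32 (3.12%). Cluster 9 had 7 of 52 (13.5%), with the ZNF444 peak among them. Of the 36 genes that held the word, 31 had no U-937 peak within 1000 bp of the start, ZNF584 with its more distant peak among them.

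ZNF420, a KRAB gene of cluster 6 whose protein is known as an inhibitor of p53, is shown as a member without a peak that holds the word more than once. Its window at chr19:37078183-37078482 (plus strand, GRCh38.p14) has the word at bases 158 to 169 and 195 to 206, in capitals here, and its nearest U-937 summit is 234834 bp from the gene's boundary.
ZNF420: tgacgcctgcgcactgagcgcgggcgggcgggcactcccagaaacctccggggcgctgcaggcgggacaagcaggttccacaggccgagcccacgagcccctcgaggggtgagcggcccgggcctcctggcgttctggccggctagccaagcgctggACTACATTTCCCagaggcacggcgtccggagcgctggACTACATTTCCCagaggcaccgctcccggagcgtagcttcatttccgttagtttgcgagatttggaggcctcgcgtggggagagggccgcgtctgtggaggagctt

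Among partners and silencing proteins of KRAB zinc fingers, 5 of 30 listed genes had a U-937 boundary peak (16.7%, 5.64 to 34.7), against the 7.02% of all protein-coding genes. That background lies inside the interval, so the list is not set apart from it at these counts. By annotated start it was 3 of 27 (11.1%, 2.35 to 29.2), against 7.75%. TRIM28, the corepressor that KRAB domains bind, had a fold of 9.80 and a -log10 q of 11.2 at chr19:58544012-58544330, just beyond cluster 9. CTCF, an insulator protein also on the list, had a fold of 8.66, and CBX3, an HP1 protein that binds methylated H3K9, one of 7.91. MORC3 had 6.78 and DAXX, a histone H3.3 chaperone, 6.07. ATF7IP, the partner of SETDB1, had a peak inside its span at a fold of 2.89 and a -log10 q of 1.56, the lowest values of the U-937 list. In THP-1, 0 of the 30 had a peak, which allows up to 10.0%, against 1.09% of all protein-coding genes with any THP-1 peak, so nothing can be read from that 0.

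Zinc finger genes of chromosome 19 under other names had a U-937 boundary peak at 2 of 27 (7.41%, 0.91 to 24.3). These were ZBTB32 (fold 6.40) and ZSCAN22 (4.80), and ZSCAN5A had a peak inside its span (7.89). The olfactory receptor genes of the chromosome, another tandem family, had 0 of 20, which allows up to 15.0%. The strongest ZNF boundary peaks on other chromosomes were at ZNF335 (fold 12.2) on chromosome 20, ZNF131 (8.53) on chromosome 5 and ZNF687 (8.16) on chromosome 1.

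Gene length was compared last. The 16 genes with a boundary peak had a median span of 21.5 kb (range 3.56 to 96.5), the 6 with an inside peak alone 20.7 kb, and the 218 without a U-937 peak 23.1 kb (2.47 to 488.0).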

How the data were processed

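Each of the 5 CUT&Tag libraries had a deposited peak list, and groups were taken from the sample titles. The build was hg38, and Bowtie2 and Picard are named, per the submitters' processing notes; tool versions, peak caller and background are not given in those sources. Per the narrowPeak layout, the authors deposited for each peak a score, a fold enrichment (a linear ratio), a -log10 p-value and a -log10 q-value; coordinates are printed counted from 1. The score served only to compare the lists' format. Of 59792 genes in the RefSeq table (GRCh38.p14, without strand), genes listed out of coordinate order, taken to sit on alternative scaffolds, were dropped. RefSeq promoter windows gave strand and starts for 210 of the 240 ZNF genes. Protein sequences were not used here, so fingers and KRAB domains were not counted.

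Counts, medians and exact binomial intervals were computed with Python 3.11.15, pandas 2.3.3 and scipy 1.17.1. The placement of summits was tested on simulated data. Genes named are the 10 strongest boundary peaks, the strongest of each cluster, the 5 strongest inside peaks, those at the window's edge, and list members with a peak; others, such as ZNF584, ZNF226, ZNF211, ZNF420 and ZNF43, were named after their values were seen. The members, lists and rules were chosen with earlier results of these data known. Alternatives covered the q threshold, window, overlap, nearest gene, annotated starts, symbol rule and cluster gap. No significance test was made, since 1 library a line held peaks.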

Additional observations from a re-analysis of the deposited data

How the results depend on the processing

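The number of ZNF genes with a U-937 boundary peak was 8 in place of 16 at a -log10 q of at least 5, the only setting run that changed a count by over 1.5 times. It was 16 with a 500 bp window, 18 with a 3000 bp window, 16 with any overlap of 1 bp or more, 16 of 249 with suffixed ZNF symbols included, 16 with each peak given to its nearest gene, and 22 with gene ends or annotated starts, a setting chosen after seeing the data. Other chromosome 19 genes ranged between 121 and 218 under their settings, with 130 when each peak counted at its nearest gene; under that setting, and with gene ends or annotated starts, the intervals of ZNF and other genes met. ZNF genes with an inside peak numbered 4 with the 3000 bp window and 6 in the other settings run. Both THP-1 counts were 0 under every setting run. With joining distances of 500 kb and 2 Mb the ZNF genes formed 10 and 6 clusters, with all 16 boundary peaks inside. Leaving out U-937 replicate 2 gave 16 to 16 boundary genes, 169 to 169 other genes and 6 to 6 inside genes, and leaving out THP-1 replicate 2 or 3 gave 0 to 0, since these libraries held no peaks; without replicate 1 no value can be given. No paired analysis was possible because only replicate 1 of each line held peaks. With unknown depth, a gene without a peak is not shown to lack FOXO3A.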

Other observations

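The authors' values in the U-937 list come in repeated steps. The peaks of ZNF211 and ZNF226 have the same fold enrichment of 5.38 and the same -log10 q of 4.32, and 26 peaks of the list share this fold with a single q. The fold of 5.51 at ZNF699 is shared by 40 peaks and that of 5.60 at ZNF584 by 35. At the strong end, 3 peaks share the fold of ZNF564 and 2 that of ZNF576.

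The ZNF cluster spans held 8 THP-1 peaks, none at a ZNF gene. Of these 4 were in cluster 2, 3 in cluster 6 and 1 in cluster 4.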
